A study of Mus musculus with 18 samples.

Results

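The MYC, MYCL and MAX network was examined in bone marrow progenitors with and without Trim33. Its 10 members, Myc, Mycn, Mycl, Max, Mxd1, Mxd3, Mxd4, Mxi1, Mnt and Mlx, were taken by symbol, and all 10 were found in each of the FPKM tables, which together list 19919 genes. Poly-A RNA had been sequenced from multipotent progenitors (MPPs), common dendritic cell progenitors lacking CD115 (CD115- CDPs) and common lymphoid progenitors (CLPs), with 3 WT libraries and 3 libraries labelled KO in each population, 18 in all. WT mice were Trim33 fl/fl without Cre, and KO mice were Trim33 fl/fl with Cre-ERT2, a ubiquitously expressed Cre recombinase that tamoxifen activates, so that Trim33 was lost in all tissues and not in the sorted cells alone. All mice were C57BL/6, were 6 to 8 weeks old, carried the floxed allele and were given tamoxifen at 2 mg daily for 5 days and analysed 7 days later. Nothing in the labels says whether the libraries of a group came from separate animals, and p-values measure the spread between these libraries.

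MYC proteins are basic helix-loop-helix leucine zipper factors that bind DNA as dimers with MAX and activate genes of ribosome assembly, protein synthesis and metabolism. MXD1, MXD3, MXD4, MXI1 and MNT also dimerize with MAX, bind the same E-box and recruit SIN3 corepressors, and MLX is a MAX-like partner of part of this group and of the glucose-responsive MONDO factors. In bone marrow MYC and MYCN sustain stem and progenitor cells, whereas MYCL is the paralog known for its expression in dendritic cells (DCs).

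The canonical E-box of the network, CACGTG, which is its own reverse complement, was searched in the 250 bases before the start sites that RefSeq gives on GRCm38.p6. Of the 10 members 9 had such windows, 11 in all, and 3 of these 11 windows, each of another member, held the motif, compared with 6.02% of all 32851 windows. These 3 sites are shown because the network's dimers recognize this hexamer, which is in capitals, with 10 bases on either side, 5′ to 3′ on the strand of the gene.
Mxd4, chr5:34187914-34187939, minus strand: gctgggccacCACGTGctgttgctaa
Mnt, chr11:74830791-74830816, plus strand: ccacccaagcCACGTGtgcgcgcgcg
Mlx, chr11:101087240-101087265, plus strand: tgggttggatCACGTGactgagcctc
The motif began 219 bases before the start site of its window for Mxd4, 123 for Mnt and 40 for Mlx. RefSeq gives some genes several start sites, and the sites of Mnt and Mlx lie at the edge of and within the gene, whose first bases are at chr11:74830806 and chr11:101086707. A match is only a description of the sequence, since binding was not measured here. Of the members that the comparisons turn on, RefSeq places Myc (gene 17869) at chr15:61985341-61990361, Mycn (18109) at chr12:12936093-12941836, Mycl (16918) at chr4:122995588-123002490 and Mxd3 (17121) at chr13:55325170-55329900 on GRCm38, and the values are for whole genes.

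The values are FPKM, in which the fragments of a gene are divided by its length and by the fragments mapped in the library, so that levels can be compared between genes. The depth, estimated from the steps between low FPKM, was 19.2 to 21.3 M reads per library. Trim33 itself was not clearly lower in the MPP libraries labelled KO. It was at 10.42, 10.12 and 8.78 FPKM in WT MPPs and at 9.71, 11.66 and 4.80 FPKM in those labelled KO. In CD115- CDPs it was at 14.30, 15.23 and 8.27 against 9.64, 8.28 and 4.03 FPKM, and in CLPs at 12.36, 7.01 and 8.86 against 7.52, 5.60 and 7.66 FPKM. Its log2 fold change passed in none of the populations without the replicate number as a block, and in CD115- CDPs with it (-0.74 ± 0.36, adjusted p = 0.528 without and 0.0258 with the block). A value over the whole gene also counts transcripts that lack the deleted exons, so the libraries are called by their labels throughout. The sort markers followed the gates in part: Il7r, which encodes the CLP marker CD127, was at 32.56 to 63.03 FPKM in WT CLPs and at 5.27 to 5.87 in WT MPPs, but Csf1r, which encodes CD115, was at 39.11 to 136.77 FPKM in WT CD115- CDPs. Some gate markers differed between genotypes without overlap, beside 30.3%, 18.2% and 33.9% of all genes in MPPs, CD115- CDPs and CLPs. In MPPs Kit was at 71.63 to 74.80 FPKM in WT and 29.92 to 49.88 in KO-labelled libraries and Ly6a at 59.28 to 76.42 and 33.93 to 43.14. In CLPs Kit was at 11.49 to 13.84 and 18.63 to 22.44 and Cd34 at 134.62 to 156.08 and 212.35 to 227.54. Csf1r did not overlap in any population, at 13.23 to 15.61 and 3.94 to 4.54 in MPPs, 39.11 to 136.77 and 9.24 to 37.18 in CD115- CDPs, and 14.47 to 26.28 and 5.05 to 7.37 in CLPs. Its limma log2 fold change was -1.59 in MPPs (adjusted p = 0.00253) and -1.65 in CLPs (adjusted p = 0.00179). The part of the gate markers in the levels of the members was not tested. The libraries numbered 3 stood apart in MPPs labelled KO and in both genotypes of CD115- CDPs. The summed FPKM of 9 neutrophil markers, for example, was 4510 and 4443 in the WT and KO-labelled CD115- CDP libraries numbered 3 and between 694.5 and 1063 in the other CD115- CDP libraries. WT MPP libraries 1 and 2 were more alike than any other pair of one group, with an SD of the log2 difference of 0.066 over 741 genes against 0.15 to 0.92 in the other 17 pairs, and their median chi-square was 2.12 times that of counting error. They were kept as separate replicates. In bulk RNA, fewer cells of a type and less RNA per cell cannot be told apart.

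Myc was the most abundant member in each WT population. Max had the second highest mean, although in WT CD115- CDP libraries 1 and 2 Mnt was above it. In WT MPPs the mean FPKM ran from 131 ± 6.14 (SD, n = 3) for Myc and 53.6 ± 0.667 for Max down to 1.17 ± 0.070 for Mycl. Mlx, Mycn, Mxi1, Mxd1 and Mxd3 lay between 11.2 and 15.2 FPKM, and each overlapped its neighbour in this order. In WT CD115- CDPs only Myc, at 94.7 ± 14.7 FPKM, and Mycn, the lowest at 3.12 ± 0.485, stood apart from their neighbours, because the libraries spread widely. In WT CLPs Mycl came next after Mxd4, at 32.0 ± 1.74 FPKM against 38.2 ± 2.84, and overlapped Mxd3 at 29.8 ± 4.76. Max, the common dimerization partner, varied least: over all 18 libraries it ran from 48.0 to 58.4 FPKM, 1.22-fold, whereas Mycl ran from 0.17 to 33.6 FPKM, 198-fold.

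**Figure D1:**
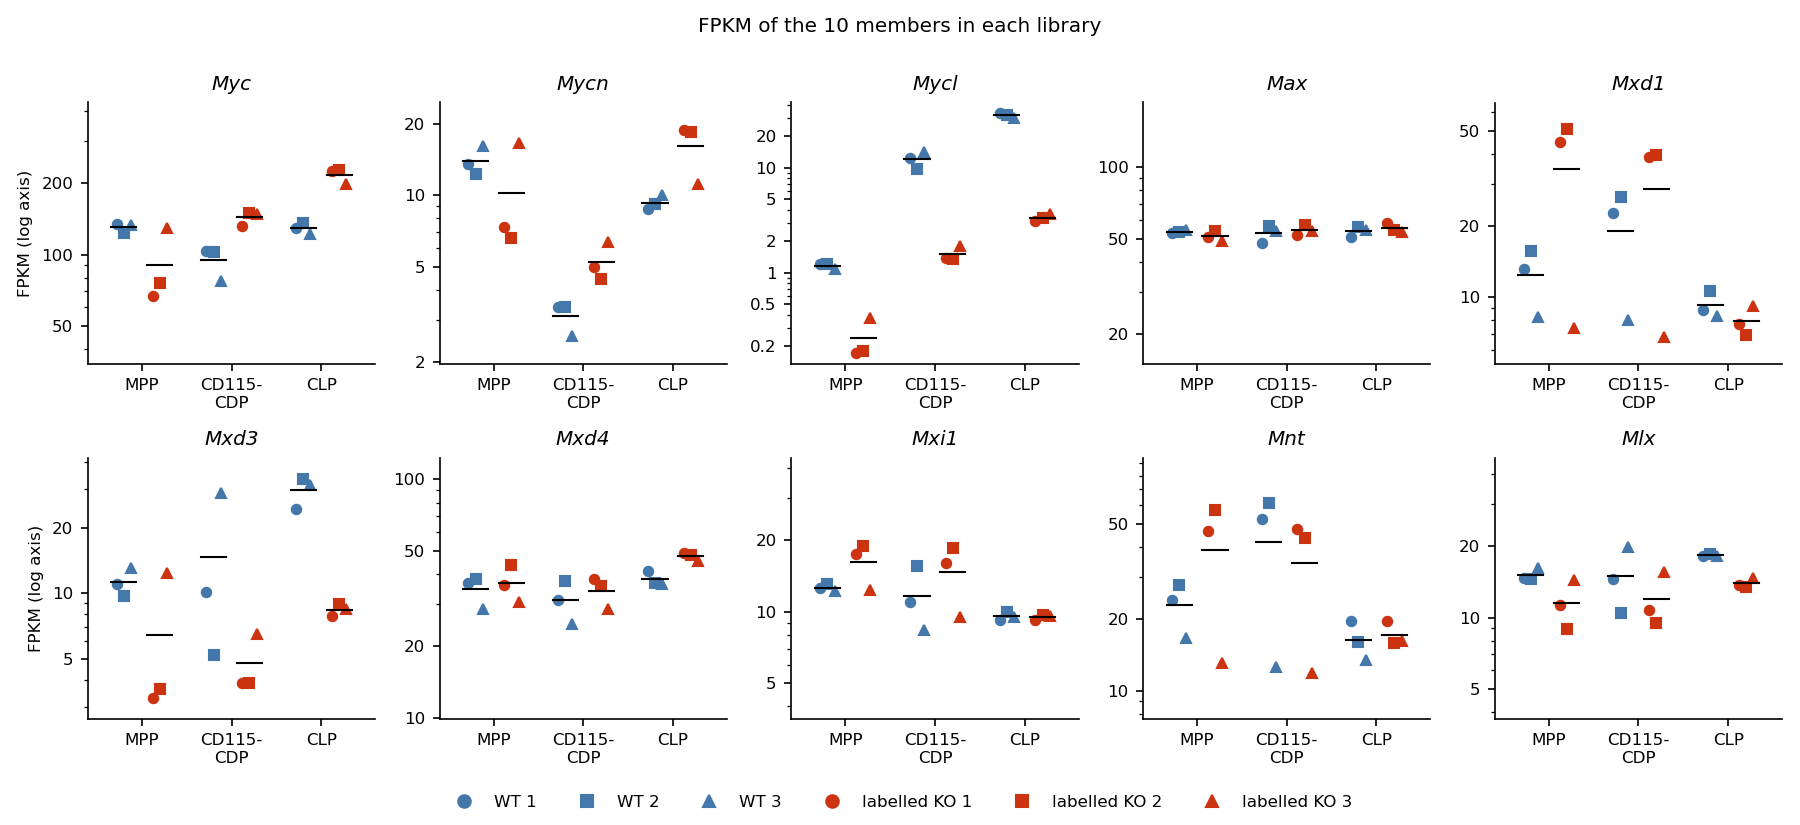
FPKM of each member on a log axis in the 6 groups, with WT libraries in blue, libraries labelled KO in red, a marker shape for each replicate number and a black bar at the group mean. Mycl differed between populations and genotypes without overlap, Max stayed between 48.0 and 58.4 FPKM, and for Mxd1 and Mnt the triangles of library 3 lay below the other libraries of MPPs and CD115- CDPs.

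The WT populations were compared in 1 limma fit of 9 libraries on log2(FPKM + 1). A member was called when its p, adjusted over all tested genes by the method of Benjamini and Hochberg, was 0.05 or less and its log2 fold change was 1 or more in size, and passed the test at that adjusted p alone. Each population had a table of its own, so that population and table cannot be told apart in any of the WT comparisons. The CLP table listed 18378 genes and the others 19710, which points to separate processing of CLPs. The 3 comparisons share libraries.

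Among WT progenitors, Mycl rose from MPPs to CD115- CDPs and CLPs, and Mycn was lowest in CD115- CDPs. Mycl was at 1.20, 1.22 and 1.09 FPKM in WT MPPs, at 12.36, 9.80 and 14.28 in WT CD115- CDPs and at 33.62, 32.26 and 30.17 in WT CLPs, with no overlap. Its log2 difference was 2.58 ± 0.14 (SE) for CD115- CDPs over MPPs (adjusted p = 2.13e-05), 3.93 ± 0.14 for CLPs over MPPs (adjusted p = 2.78e-06) and -1.34 ± 0.14 for CD115- CDPs over CLPs (adjusted p = 0.00139). Mycn fell from 13.60, 12.25 and 16.14 FPKM in WT MPPs to 3.40, 3.40 and 2.56 in WT CD115- CDPs (log2 difference -1.86 ± 0.14, adjusted p = 6.32e-05). In WT CLPs it was at 8.76, 9.22 and 10.01 FPKM, above CD115- CDPs (CD115- CDPs over CLPs -1.33 ± 0.14, adjusted p = 0.00146) and below MPPs (CLPs over MPPs -0.53 ± 0.14, adjusted p = 0.0272). The 2 paralogs thus had their lowest level in different WT populations. Myc was lower in WT CD115- CDPs than in WT MPPs by -0.47 ± 0.12 (adjusted p = 0.0262) and than in WT CLPs by -0.45 ± 0.12 (adjusted p = 0.049), and its difference between CLPs and MPPs was -0.02 (95% interval -0.30 to 0.26). These differences of Myc, and that of Mycn between CLPs and MPPs, were under the minimum fold and depended on single libraries and on the processing. The adjusted p of Myc rose as high as 0.10 in CD115- CDPs over MPPs without any 1 WT MPP library and as high as 0.155 in CD115- CDPs over CLPs without any 1 library but WT CD115- CDP library 3, and that of Mycn as high as 0.114 without WT MPP library 1 or 3 or any 1 WT CLP library. Myc no longer passed in CD115- CDPs over MPPs with median ratio scaling, nor in CD115- CDPs over CLPs with that scaling, a pseudocount of 0.1, no filter or no trend, and Mycn no longer passed in CLPs over MPPs with TPM.

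Between WT CD115- CDPs and WT MPPs 2 of 10 members were called, beside 6.98% of the 12528 genes tested, and 3 passed, beside 21.9%. Between WT CLPs and WT MPPs 1 was called, beside 8.70%, and 2 passed, beside 25.0%. Between WT CD115- CDPs and WT CLPs 2 were called, beside 3.0%, and 3 passed, beside 10.9%. WT CD115- CDP library 3 decided the count of the last comparison: without it 5 members were called, beside 8.22% of genes, with Mnt at 1.75, Mxd1 at 1.31 and Mxd3 at -1.88 on the log2 scale in CD115- CDPs over CLPs. Without that library, or without WT CD115- CDP library 2, Mxd3 was also called in WT CLPs over WT MPPs. With all 9 libraries its log2 difference there was 1.33 ± 0.47 (adjusted p = 0.0695).

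Mycl fell in all 3 populations labelled KO. It went from 1.20, 1.22 and 1.09 FPKM in WT MPPs to 0.17, 0.18 and 0.37 in those labelled KO, from 12.36, 9.80 and 14.28 to 1.38, 1.35 and 1.79 in CD115- CDPs, and from 33.62, 32.26 and 30.17 to 3.10, 3.35 and 3.61 in CLPs. No WT library overlapped one labelled KO in any population, and the mean FPKM was 4.88-fold, 8.06-fold and 9.55-fold higher in WT. The lowest values rest on few reads, about 12, 13 and 26 in the 3 MPP libraries labelled KO for a transcript of 3501 bases. On the log2(FPKM + 1) scale, which understates the change of low genes, the fold change was -0.81 ± 0.11 in MPPs (limma, adjusted p = 0.0173, under the minimum fold), -2.38 ± 0.20 in CD115- CDPs (adjusted p = 0.026) and -2.92 ± 0.11 in CLPs (adjusted p = 1.88e-06). In CLPs each fit that left out 1 library kept the adjusted p at or below 5.7e-05. In CD115- CDPs the adjusted p rose as high as 0.255 when WT library 1 or 2 or KO-labelled library 1 or 2 was left out, with a log2 fold change of -2.52 to -2.34, and in MPPs it rose as high as 0.124 without WT library 1, 2 or 3 or KO-labelled library 1 or 2, with -0.84 to -0.77.

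The 5 genes whose log2(FPKM + 1) was most like that of Mycl over the 18 libraries, among 12420 others, were Amica1 (Pearson r = 0.985), Rtn4rl1 (0.983), Pdzd4 (0.978), Klrd1 (0.977) and Pld4 (0.976). These r values are a description, since the libraries form groups by population and genotype. Of 6 plasmacytoid DC markers all 6 fell by the call rule in CLPs labelled KO, beside 3.52% of genes called. They were led by Spib at -5.20 ± 0.13, which encodes a transcription factor of these cells, and Siglech at -4.11 ± 0.16, a surface lectin. The summed FPKM of the 6 was 834.1 to 944.1 in WT CLPs and 128.9 to 144.4 in those labelled KO. In CD115- CDPs the sum was 319.6 to 427.1 in WT libraries and 147.1 to 163.4 in those labelled KO, and in MPPs 149.5 to 173.4 and 125.5 to 134.4. Bst2 alone was at 207.58 to 275.14 FPKM in WT CD115- CDPs and at 106.82 to 125.31 in those labelled KO. By the call rule 0 of the 6 fell in CD115- CDPs or MPPs, beside 0.106% and 1.48% of genes. Without the minimum fold 0 and 2 passed, beside 0.106% and 3.84%. Of 5 conventional DC markers 4 were tested in CD115- CDPs and CLPs. By the call rule 1 and 3 fell, beside 0.106% and 3.52% of genes called. In CLPs H2-Ab1, an MHC class II gene, passed upward by less than the minimum fold (0.58 ± 0.16, adjusted p = 0.0479, but up to 0.152 without any 1 library other than WT library 3), and Itgax, which encodes CD11c, had a log2 fold change of -3.12 ± 0.14 in CLPs and -1.85 ± 0.20 in CD115- CDPs, where its adjusted p of 0.0499 rose to between 0.103 and 0.353 without any 1 library. The part of these cells in the fall of Mycl was not tested.

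Myc, the paralog that drives growth in most cycling cells, was higher in CD115- CDPs and CLPs labelled KO and lower in 2 of 3 MPP libraries labelled KO. In CLPs it rose from 129.08, 135.77 and 122.10 FPKM to 223.78, 226.27 and 198.71, with no overlap and a log2 fold change of 0.74 ± 0.10 (adjusted p = 0.00183, under the minimum fold). In CD115- CDPs it was at 103.53, 102.76 and 77.77 FPKM in WT libraries and at 132.17, 149.30 and 147.97 in those labelled KO. These groups did not overlap either, but the log2 fold change of 0.60 ± 0.15 passed only with the replicate number as a block (adjusted p = 0.324 without and 0.0392 with it). In MPPs the WT libraries were at 134.58, 123.55 and 133.75 FPKM and those labelled KO at 67.00, 75.66 and 129.37. Library 3 labelled KO lay among the WT libraries and the other 2 far below them. The fold change was -0.58 ± 0.23 (adjusted p = 0.195), and without that library it was -0.87 ± 0.08 (adjusted p = 0.00112).

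The 5 genes most like Myc over the 18 libraries were Kif17 (r = 0.908), Gimap7 (0.906), Slc39a6 (0.897), Adgrg3 (0.889) and Fbxw9 (0.876). Immediate early genes respond within minutes to stimulation, as Myc can. Of 13 such genes 5 fell by the call rule in MPPs labelled KO, beside 1.48% of all genes called. Among them were Egr1 at -3.02 ± 0.13 and Dusp1 at -2.38 ± 0.46 (adjusted p = 0.0454, but up to 0.189 without any 1 library other than library 3 labelled KO). In CD115- CDPs and CLPs 0 were called, beside 0.106% and 3.52%, and limma gave 0 at an unadjusted p under 0.05. The test of whether their change differed between populations called 0 of the 13, beside 2.45% of 12421 genes. Their summed FPKM was 11570 to 12740 in WT MPPs and 5017 to 5675 in all 3 MPP libraries labelled KO, the third included. Their part in the level of Myc was not tested.

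Mycn, a paralog needed with Myc for stem cell survival, followed the pattern of Myc at a lower level. In CLPs it rose from 8.76, 9.22 and 10.01 FPKM to 18.85, 18.46 and 11.20, without overlap, although library 3 labelled KO lay close to WT (log2 fold change 0.70 ± 0.19, adjusted p = 0.0416). It was under the minimum fold, and no longer passed without WT library 1, 2 or 3 or KO-labelled library 1 or 2 (adjusted p up to 0.129), without the filter on low values (0.0904) or with TPM (0.0632). In CD115- CDPs it was at 3.40, 3.40 and 2.56 FPKM in WT and at 5.01, 4.45 and 6.35 in KO-labelled libraries, again without overlap, and did not pass (0.60 ± 0.20, adjusted p = 0.408). In MPPs it was at 13.60, 12.25 and 16.14 FPKM in WT libraries and at 7.39, 6.62 and 16.65 in those labelled KO. As with Myc, library 3 labelled KO was at the WT level, and the fold change was -0.52 ± 0.32 (adjusted p = 0.336) with it and -0.90 ± 0.13 (adjusted p = 0.00245) without it. The genes most like Mycn were Sstr2 (r = 0.966), Entpd5 (0.943), Gyltl1b (0.943), Lrrn4 (0.938) and Gimap1 (0.936).

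Max showed no detectable change with the KO label. It was at 52.97, 53.54 and 54.30 FPKM in WT MPPs and at 50.94, 53.74 and 49.15 in those labelled KO, with a 95% interval of the log2 fold change of -0.25 to 0.13. The values were 48.00, 56.85 and 53.79 against 52.05, 57.16 and 53.97 FPKM in CD115- CDPs, with an interval of -0.27 to 0.35. In CLPs they were 51.07, 56.32 and 54.37 against 58.36, 54.39 and 53.57 FPKM, with an interval of -0.17 to 0.25. The intervals reach a fold change of at most 0.35 on the log2 scale, and Max overlapped between genotypes in each population.

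**Figure D2:**
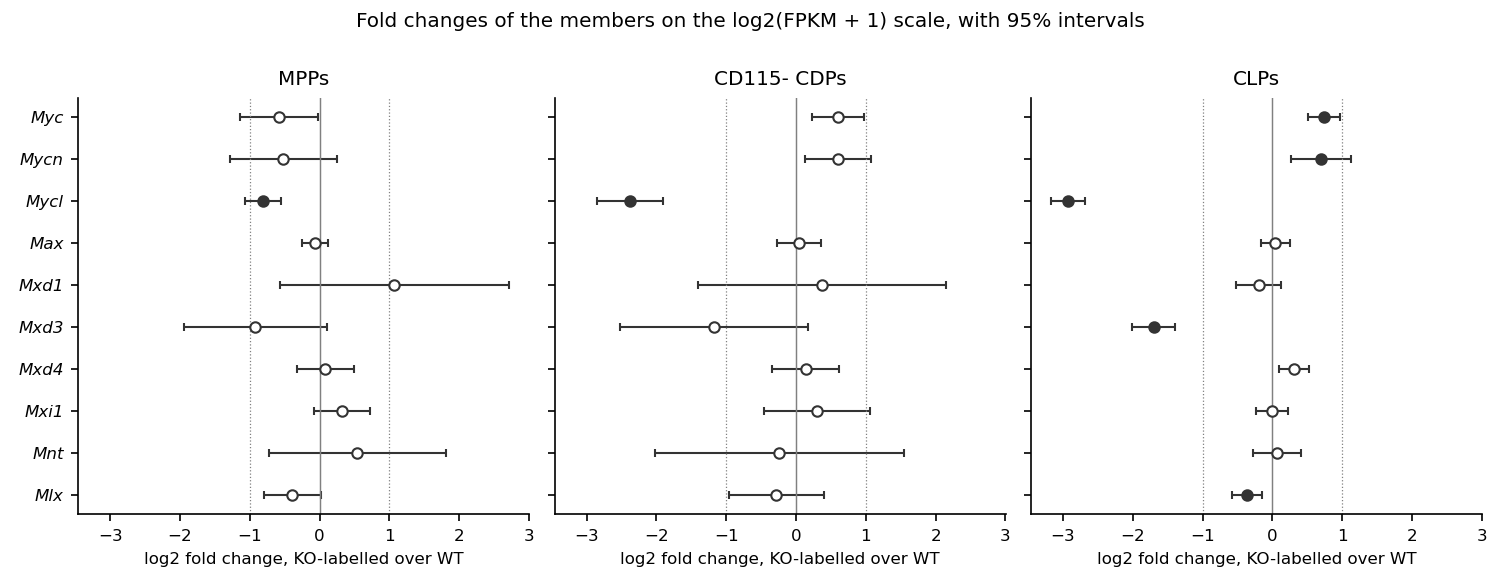
Log2 fold change of each member in libraries labelled KO over WT, with 95% intervals from limma, in the 3 populations. Filled points have an adjusted p of at most 0.05, and dotted lines mark the minimum fold. Mycl lay below 0 in all 3 panels (-0.81, -2.38 and -2.92), Myc above 0 in CD115- CDPs and CLPs (0.60 and 0.74), and the intervals of Mxd1 and Mnt were wide in MPPs and CD115- CDPs.

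Among the antagonists of MYC, Mxd3 fell most in CLPs. MXD3 is the MXD protein associated with proliferating cells, in S phase. In CLPs it went from 24.42, 33.55 and 31.34 FPKM to 7.89, 8.91 and 8.43, without overlap, and the mean was 3.54-fold higher in WT (log2 fold change -1.70 ± 0.13, adjusted p = 9.43e-05). In CD115- CDPs the WT libraries were at 10.13, 5.18 and 28.80 FPKM and those labelled KO at 3.87, 3.87 and 6.52. Library 3 was the highest of its group in both genotypes, the groups overlapped, and the fold change of -1.17 ± 0.56 did not pass (adjusted p = 0.526, or 0.0557 with the replicate block). With both libraries numbered 3 left out it was -0.77 ± 0.27 (adjusted p = 0.159). In MPPs the values were 11.01, 9.68 and 13.04 FPKM in WT libraries and 3.31, 3.62 and 12.34 in those labelled KO. Here too library 3 labelled KO was at the WT level (-0.92 ± 0.43, adjusted p = 0.238, and -1.45 ± 0.13, adjusted p = 0.00107, without it).

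Mxd1 and Mnt divided the libraries by replicate number in MPPs and CD115- CDPs. MXD1 is the antagonist that rises as myeloid cells leave the cycle, and MNT is the most widely expressed of the group. Mxd1 was at 13.17, 15.67 and 8.28 FPKM in WT MPPs and at 44.84, 51.06 and 7.46 in those labelled KO. Mnt was at 24.13, 27.86 and 16.59 FPKM in WT MPPs and at 47.02, 57.29 and 13.06 in those labelled KO. For both genes libraries 1 and 2 labelled KO were above every WT library and library 3 was below every WT library. Neither passed with all libraries (Mxd1 1.07 ± 0.69, adjusted p = 0.349; Mnt 0.54 ± 0.53, adjusted p = 0.519), and both were called without library 3 labelled KO (Mxd1 1.91 ± 0.24, adjusted p = 0.00187; Mnt 1.18 ± 0.21, adjusted p = 0.0054).

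In CD115- CDPs the same split appeared in both genotypes. Mxd1 was at 22.50, 26.47 and 8.05 FPKM in WT libraries and at 38.88, 39.73 and 6.79 in those labelled KO. Mnt was at 52.67, 61.43 and 12.57 FPKM in WT libraries and at 47.52, 43.79 and 11.80 in those labelled KO. Library 3 was thus the lowest of each group. Neither fold change passed (Mxd1 0.37 ± 0.74, adjusted p = 0.91; Mnt -0.24 ± 0.74, adjusted p = 0.95). With both libraries numbered 3 left out they were 0.67 ± 0.15 for Mxd1 (adjusted p = 0.053) and -0.31 ± 0.14 for Mnt (adjusted p = 0.24). In CLPs there was no such split: Mxd1 ran from 8.33 to 10.64 FPKM in WT and from 6.94 to 9.24 in KO-labelled libraries, and Mnt from 13.50 to 19.60 and from 15.80 to 19.52. When the libraries numbered 3 of MPPs and CD115- CDPs were left out together, a choice made after seeing the data, 2 members (Mxd1 at 1.67 ± 0.11 and Mxd3 at -1.34 ± 0.10) were called in MPPs, beside 6.43% of the genes tested, and Mycl alone in CD115- CDPs, beside 1.84%.

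Mxi1 and Mxd4, which encode antagonists found in resting and differentiating cells, had small differences. Mxi1 was at 12.56, 13.11 and 12.21 FPKM in WT MPPs and at 17.52, 18.87 and 12.28 in those labelled KO, with library 3 again at the WT level (0.32 ± 0.17, adjusted p = 0.281, and 0.49 ± 0.08, adjusted p = 0.00322, without it). It was at 11.00, 15.59 and 8.35 against 15.95, 18.53 and 9.51 FPKM in CD115- CDPs and at 9.24, 9.96 and 9.46 against 9.21, 9.64 and 9.62 in CLPs. In CLPs the 95% interval of its log2 fold change was -0.24 to 0.22. Mxd4 was the most abundant antagonist in WT MPPs and WT CLPs. It was at 41.42, 36.67 and 36.35 FPKM in WT CLPs and at 49.19, 47.94 and 45.53 in those labelled KO, without overlap, and did not pass (0.31 ± 0.10, adjusted p = 0.0647), although it did with the replicate block (0.0484), with median ratio scaling and without WT library 1. In MPPs it was at 36.77, 38.36 and 28.63 against 36.16, 43.74 and 30.58 FPKM, and in CD115- CDPs at 31.19, 37.29 and 24.82 against 38.02, 35.67 and 28.64. The groups overlapped in both.

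Mlx was lower with the KO label in CLPs, where it fell from 18.07, 18.47 and 18.16 FPKM to 13.70, 13.37 and 14.70 without overlap (log2 fold change -0.37 ± 0.09, adjusted p = 0.036). With WT library 2 or 3 or any 1 library labelled KO left out the adjusted p was 0.0762 to 0.149. In MPPs the values were 14.71, 14.55 and 16.21 against 11.25, 8.95 and 14.36 FPKM, and in CD115- CDPs 14.55, 10.46 and 19.70 against 10.79, 9.52 and 15.58. The groups did not overlap in MPPs but did in CD115- CDPs, and neither passed (-0.39 ± 0.17, adjusted p = 0.224; -0.28 ± 0.28, adjusted p = 0.79). Without library 3 labelled KO, Mlx passed in MPPs (-0.55 ± 0.11, adjusted p = 0.00819).

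Counted over the members, limma called 0 of 10 in MPPs, beside 1.48% of 12372 genes, and 2 had an unadjusted p under 0.05. Mycl alone passed there, beside 3.84% of genes, and 2 members (Mycl and Mlx) did not overlap between genotypes, beside 30.3%. Library 3 labelled KO decided this count: without it 8 members passed, all but Max and Mxd4, but 54.3% of all genes did so too, and 3 were called, beside 7.40%. With the libraries numbered 3 left out 8 passed as well, beside 49.6%. In CD115- CDPs 1 was called and 1 passed, beside 0.106% of 12229 genes for either rule, and 3 (Myc, Mycn and Mycl) did not overlap, beside 18.2%. With the replicate block 1 was called there, beside 1.83%, and 2 (Myc and Mycl) passed, beside 9.34%. In CLPs 2 were called, beside 3.52% of 12339 genes, 5 passed, beside 14.3%, and 6 did not overlap, beside 33.9%. The members had a median log2 fold change of -0.23, 0.090 and 0.016 in MPPs, CD115- CDPs and CLPs, beside -0.11, -0.075 and 0.0076 over all genes tested.

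The change with the KO label differed between populations for 2 members. An F test of whether the genotype difference varied with the population, over the 18 libraries, called Myc (adjusted p = 0.0162) and Mycl (adjusted p = 1.71e-05), beside 2.45% of 12421 genes. For Myc the fold change in CD115- CDPs exceeded that in MPPs by 1.18 ± 0.26 and that in CLPs exceeded it by 1.32 ± 0.26, whereas CLPs and CD115- CDPs differed by 0.14 ± 0.26. The call for Myc was lost, at an adjusted p of 0.0502 to 0.0643, without WT MPP library 1 or 3 or KO-labelled MPP library 1 or 2, and without KO-labelled MPP library 3 it was 8.86e-05. For Mycl the fold change in CD115- CDPs was lower than in MPPs by -1.57 ± 0.19 and in CLPs by -2.11 ± 0.19 on the log2(FPKM + 1) scale. This call depends on that scale, because Mycl was near 1 FPKM in WT MPPs: with a pseudocount of 0.1 the fold changes were -1.95, -2.92 and -3.22 in MPPs, CD115- CDPs and CLPs and the adjusted p of the interaction was 0.078. Mycn did not pass (adjusted p = 0.153), but did without KO-labelled MPP library 3 (adjusted p = 0.0061).

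Summed over the paralogs, Mycl made up a smaller share of the MYC transcripts in each population labelled KO. The share of Mycl in the FPKM of Myc, Mycn and Mycl was 19.6%, 18.2% and 18.6% in WT CLPs and 1.26%, 1.35% and 1.69% in those labelled KO. In CD115- CDPs it was 10.4%, 8.45% and 15.1% against 0.996%, 0.870% and 1.15%, and in MPPs 0.803%, 0.890% and 0.722% against 0.228%, 0.218% and 0.253%. The sum of the 3 paralogs nevertheless was higher in CLPs labelled KO, at 245.7, 248.1 and 213.5 FPKM against 171.5, 177.2 and 162.3 in WT.

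The ratio of this sum to that of the 5 antagonists (Mxd1, Mxd3, Mxd4, Mxi1 and Mnt) is a description of transcript levels and was not tested. In CLPs it was 1.66, 1.66 and 1.64 in WT libraries and 2.63, 2.78 and 2.40 in those labelled KO. In MPPs it was 1.53, 1.31 and 1.92 in WT and 0.501, 0.472 and 1.93 in KO-labelled libraries, and in CD115- CDPs 0.936, 0.795 and 1.15 in WT and 0.961, 1.10 and 2.47 in KO-labelled libraries. The groups were apart in CLPs, and in MPPs and CD115- CDPs library 3 had the highest ratio of its group.

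**Figure D3:**
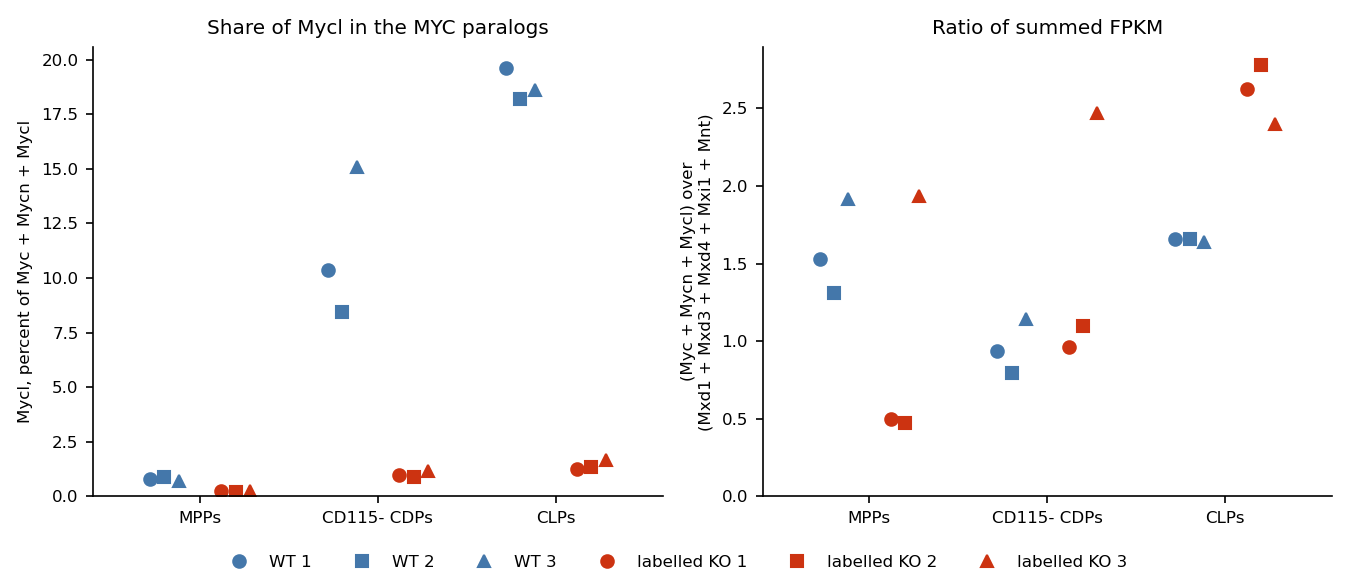
Left, Mycl as a percent of the summed FPKM of the MYC paralogs. Right, the ratio of the summed FPKM of the paralogs to that of the 5 antagonists, with 1 point for each library in both panels, WT in blue, labelled KO in red and shapes for replicate numbers. The share of Mycl was 18.2% to 19.6% in WT CLPs and at most 1.69% in any library labelled KO, and the ratio of KO-labelled MPP libraries 1 and 2 was 0.501 and 0.472.

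Known MYC target genes rose in part in CLPs labelled KO. Of 22 targets in ribosome biogenesis and translation 10 rose and 0 fell in CLPs at an adjusted p of at most 0.05. Of all genes tested 14.3% passed there. No target reached the minimum fold, and the median log2 fold change was 0.37. In CD115- CDPs and MPPs 0 of 22 passed, beside 0.106% and 3.84% of genes. In each 8 had an unadjusted limma p under 0.05, and the medians were 0.35 and 0.12. The medians stayed above 0 with TPM and with median ratio scaling, at 0.10 and 0.24 in MPPs, 0.23 and 0.40 in CD115- CDPs and 0.34 and 0.37 in CLPs. Npm1, a nucleolar chaperone, rose in CLPs by 0.78 ± 0.14 (adjusted p = 0.00815), from 524.42, 468.58 and 611.26 to 806.02, 985.57 and 964.80 FPKM, and had 0.35 ± 0.07 in MPPs (adjusted p = 0.056). Eif5a, a translation factor, had 0.18 ± 0.15 in CLPs and 0.51 ± 0.11 in CD115- CDPs (adjusted p = 0.474 and 0.253). The summed FPKM of the 22 did not overlap between genotypes in any population. It was 3182 to 3475 in WT and 3554 to 3937 in KO-labelled MPPs, 3082 to 3155 and 3884 to 4600 in CD115- CDPs, and 2597 to 3145 and 3560 to 3912 in CLPs. In MPPs this higher sum stood beside lower Myc in libraries 1 and 2 labelled KO. The 2 most abundant targets weighed heavily in it. Npm1 was at 783.12, 760.79 and 827.59 FPKM in WT MPPs and at 1067.16, 960.87 and 989.08 in those labelled KO. Eif5a was at 792.65, 778.16 and 843.32 against 989.77, 911.79 and 978.46 FPKM. Of the 22 targets 14 had a log2 fold change above 0 in MPPs, and all 22 in CD115- CDPs and CLPs.

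Of 22 MYC targets in metabolism and growth, 2 rose and 1 fell in CLPs without the minimum fold, beside 14.3% of all genes tested. In MPPs 1 (Slc7a5, an amino acid transporter) passed upward, beside 3.84% of genes, but not with TPM or median ratio scaling. The counts in CLPs and MPPs were near these shares. In CD115- CDPs 0 passed, beside 0.106%, and 10 had an unadjusted limma p under 0.05. The medians in MPPs, CD115- CDPs and CLPs were 0.11, 0.42 and 0.27. The most abundant were Pkm, a glycolytic enzyme, at 0.42 ± 0.16 in CD115- CDPs and 0.29 ± 0.14 in CLPs, and Cdk4, a kinase of the G1 phase, at 0.38 ± 0.12 and 0.17 ± 0.13, none of which passed. Of 15 cell cycle genes 4 fell in CLPs by less than the minimum fold, beside 14.3% of genes passing in either direction, and 0 passed elsewhere. The medians were -0.026, -0.14 and -0.22 in MPPs, CD115- CDPs and CLPs, of which that in MPPs was 0.093 with median ratio scaling. Limma gave 0 of the 15 in MPPs and 1 in CD115- CDPs at an unadjusted p under 0.05.

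Of 25 partners and regulators of MYC and MAX, 24 were tested. In MPPs, CD115- CDPs and CLPs 0 were called, beside 1.48%, 0.106% and 3.52% of genes. Without the minimum fold 1 passed upward and 1 downward in CLPs, beside 14.3% of genes, and 0 elsewhere. An unadjusted limma p under 0.05 was found for 2, 1 and 3 in MPPs, CD115- CDPs and CLPs. The most abundant was Pim1, a kinase that acts with MYC, at 0.36 ± 0.11 in CLPs (adjusted p = 0.0564). In CD115- CDPs Pim1 was at 738.37, 677.07 and 252.71 FPKM in WT and at 694.89, 673.92 and 316.59 in KO-labelled libraries, so that library 3 was the lowest of each group as for Mxd1 and Mnt. Of 7 genes repressed by MYC or targeted by MLX 6 were tested. Ndrg1, a gene repressed by MYC and MYCN, fell in MPPs (-1.03 ± 0.16, adjusted p = 0.026, but 0.0509 with median ratio scaling and up to 0.156 without WT library 1, 2 or 3 or KO-labelled library 2), and Arrdc4, an arrestin gene that responds to glucose through MLX, fell in CLPs (-1.06 ± 0.22, adjusted p = 0.0137, but 0.0622 without WT library 2).

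**Figure D4:**
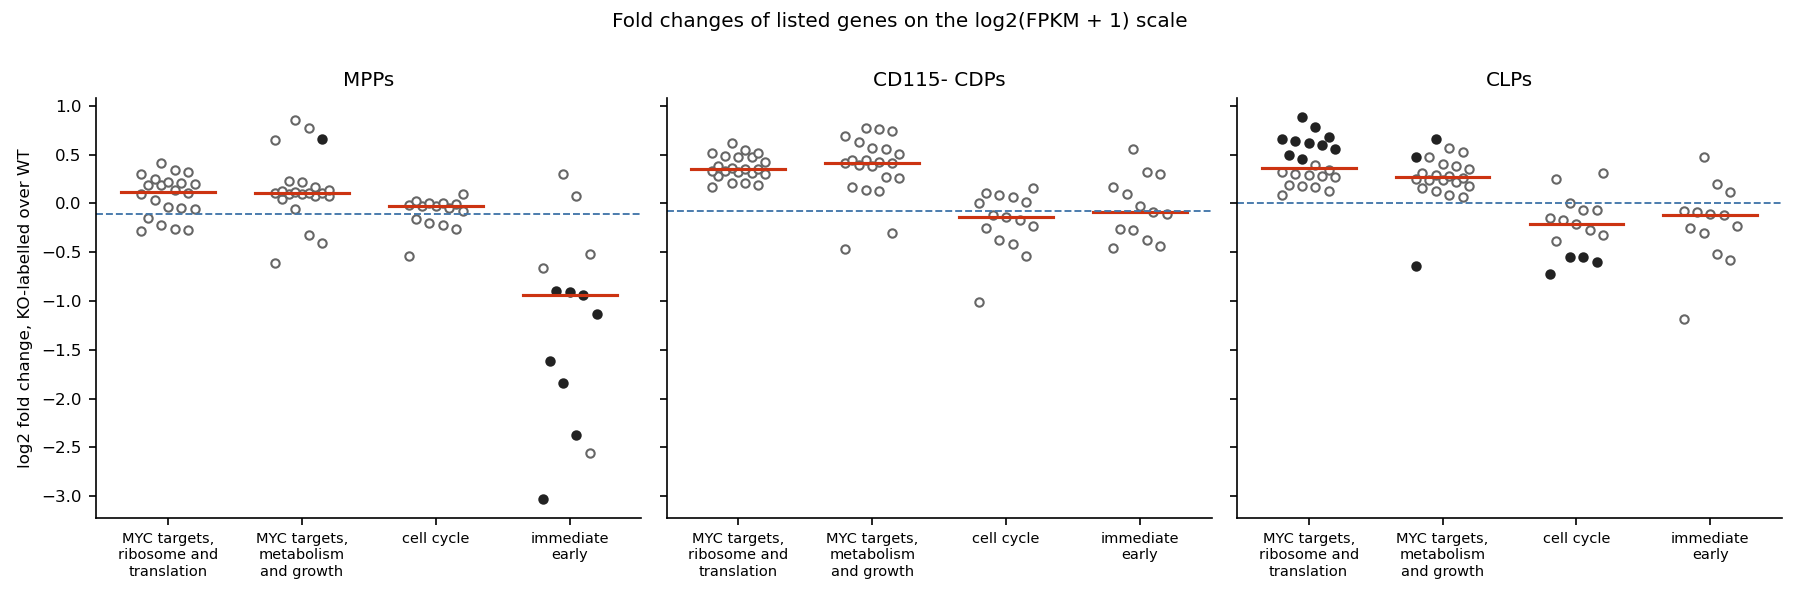
Log2 fold changes in libraries labelled KO over WT of 22 MYC targets in ribosome biogenesis and translation, 22 in metabolism and growth, 15 cell cycle genes and 13 immediate early genes. Each point is a gene, filled at an adjusted p of at most 0.05, red bars are the medians of the lists and the dashed line is the median of all genes tested. The ribosomal targets had medians of 0.12, 0.35 and 0.37 in MPPs, CD115- CDPs and CLPs, and the immediate early genes -0.94 in MPPs.

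Sums of other lineage markers also differed with the KO label, some of them without any single marker that passed. The summed FPKM of 7 erythroid markers was 349.0 to 377.0 in WT and 32.05 to 56.84 in KO-labelled MPPs, and 32.83 to 55.60 and 5.35 to 9.70 in CLPs. It overlapped in CD115- CDPs, at 6.45 to 34.78 and 7.01 to 22.86. The sum of 9 neutrophil markers was 3481 to 3606 and 1565 to 2584 in MPPs and 424.4 to 993.2 and 241.0 to 414.3 in CLPs. In CD115- CDPs it overlapped, at 694.5 to 4510 and 796.3 to 4443. The sum of 6 monocyte markers was 524.3 to 544.1 and 166.7 to 242.6 in MPPs, 171.2 to 1779 and 104.0 to 270.9 in CD115- CDPs, and 217.5 to 287.1 and 56.70 to 95.53 in CLPs. The sum of 6 B lymphoid markers overlapped between genotypes in CLPs, at 154.3 to 361.8 and 134.7 to 267.3 FPKM, and in CD115- CDPs, at 44.08 to 80.90 and 31.38 to 122.3. In MPPs it did not overlap, at 34.59 to 38.31 and 12.43 to 25.37. The sum of 4 T lymphoid markers was at most 11.12 FPKM in any library but did not overlap in any population. It was 4.19 to 4.95 and 1.09 to 1.98 in MPPs, 2.61 to 10.51 and 0.79 to 1.40 in CD115- CDPs, and 7.67 to 11.12 and 1.51 to 1.79 in CLPs. Of the tested markers in MPPs 6 of 7 erythroid, 3 of 9 neutrophil, 3 of 5 monocyte, 0 of 5 B lymphoid and 1 of 1 T lymphoid passed. All were lower, beside 3.84% of genes passing. In CD115- CDPs 0 of these lists passed, beside 0.106%. In CLPs 3 of 4 erythroid, 0 of 9 neutrophil, 2 of 5 monocyte and 2 of 2 T lymphoid passed downward. There 1 of 5 B lymphoid markers passed upward, beside 14.3% of genes in either direction. The part of these markers in the levels of the members was not tested.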

How the data were processed

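Poly-A RNA of sorted progenitors was sequenced as single-end reads of 50 bases. The authors aligned reads to mm10 with HISAT2 2.0.4 and Bowtie2 2.2.5 and quantified genes with RSEM 1.2.12, and deposited FPKM per gene and library in 1 table per population. No count table was used here, so the authors' tests on counts were not repeated. Groups came from the sample labels.

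Genes averaging 0.5 FPKM or more in the libraries of a fit were tested on log2(FPKM + 1) with limma 3.58.1 (lmFit and eBayes with a trend) in R 4.3.3, for each population, for the 9 WT libraries and, over 18169 genes listed in all tables, for the interaction of population and genotype. P-values were adjusted by Benjamini-Hochberg over all genes tested. The tests were tried on simulated data. Depth was estimated from the step of FPKM times transcript length less 49 bases, over 923 to 1020 low genes with 1 transcript per library, and is approximate. Summaries used pandas 2.3.3 and numpy 2.4.6.

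The members and the gene lists were chosen with earlier results of these data known. Named were all members, Trim33, the 5 genes most correlated with each MYC paralog, and of each list up to 2 called genes with the largest rise and 2 with the largest fall, or the 2 most abundant; the sort markers, H2-Ab1, Slc7a5 and other examples outside this were chosen after their values were seen.

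Replicate numbers 1, 2 and 3 are shared by the genotypes. Deviations from the group means of same-numbered libraries correlated at 0.437, 0.671 and 0.790 in CD115- CDPs and at 0.400, 0.329 and 0.131 in CLPs. In MPPs they correlated at 0.038, 0.482 and 0.472. Between differently numbered libraries the correlations ran from -0.784 to 0.663 in CD115- CDPs, -0.399 to 0.234 in CLPs and -0.492 to 0.262 in MPPs. The main fits paired no libraries, and the replicate block was an alternative. Alternatives were a pseudocount of 0.1, no filter, TPM, median ratio scaling, no trend, no minimum fold, the replicate block, each library left out and, added after seeing the data, the libraries numbered 3 left out. Amino acid and binding data were not used here.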

Additional observations from a re-analysis of the deposited data

Results flagged for a closer look

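The change with the KO label differed between the 3 populations for 2 members, by an F test of whether the genotype difference varied with the population, over 18 libraries. For Myc the adjusted p was 0.0162: the log2 fold change was -0.58, 0.60 and 0.74 in MPPs, CD115- CDPs and CLPs, and Myc was higher in 3 of 3 KO-labelled libraries than in every WT library of CD115- CDPs and of CLPs, and in MPPs lower than every WT library in 2 of 3. For Mycl the adjusted p was 1.71e-05: the log2 fold change was -0.81, -2.38 and -2.92 in the same order, and Mycl was lower than every WT library in 3 of 3 KO-labelled libraries of each population. The call for Mycl was lost with a pseudocount of 0.1. That for Myc was lost without WT MPP library 1 or 3 or KO-labelled MPP library 1 or 2. The groups held 3 libraries each, too few to test a single library as an outlier.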

How the results depend on the processing

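Limits: 3 libraries per group, no read counts, and libraries numbered 3 that stood apart. Each count is of members called, out of 10. In MPPs it was 0, and 1 with a pseudocount of 0.1, TPM or no minimum fold; without 1 library it ranged from 0 to 3, and with the libraries numbered 3 left out it was 2. In CD115- CDPs it was 1, 0 without the filter on low values, and 0 to 1 without 1 library. In CLPs it was 2, and 5 without the minimum fold. The interaction gave 2, 1 with a pseudocount of 0.1, and 1 to 3 without 1 library. With the libraries numbered 3 left out it gave 5, but 3017 of 12408 genes were then called, against 304 of 12421 with all libraries. For WT CLPs over WT MPPs the count was 1, and 1 to 2 without 1 library. It was 2 with TPM, with no minimum fold and with the libraries numbered 3 left out. For WT CD115- CDPs over WT CLPs the count was 2, and 2 to 5 without 1 library. With the libraries numbered 3 left out it was 5, but 1033 of 12514 genes were then called, against 376 of 12528 with all libraries. The causes were not tested.

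With the replicate block the counts were 0, 1 and 2 in MPPs, CD115- CDPs and CLPs, 2 for the interaction and 2, 1 and 2 for the WT comparisons, as without it. The block moved 2 members past the adjusted p alone, Myc in CD115- CDPs and Mxd4 in CLPs, and 2 WT differences short of it, Mycn in CLPs over MPPs (adjusted p = 0.0521) and Myc in CD115- CDPs over CLPs (adjusted p = 0.0589); apart from Trim33 in CD115- CDPs it changed no other call of a member or of the deleted gene.

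Of 380 refits of single fold changes, 324 kept their direction and side of the threshold, 22 no longer passed, 18 newly passed and 16 changed sign, all between values that did not pass. The changed values were 0.055 for Max in MPPs with median ratio scaling and -0.081 for Max in CD115- CDPs with TPM. Without 1 library, Mxd4 ranged from -0.044 to 0.21 in MPPs. In CD115- CDPs Max ranged from -0.024 to 0.095, Mxd1 from -0.12 to 1.16, Mxd4 from -0.0097 to 0.27 and Mnt from -0.93 to 0.39. In CLPs Mxi1 ranged from -0.030 to 0.019 and Mnt from -0.051 to 0.20. TPM moved the median of all genes in CD115- CDPs from -0.075 to -0.19, and median ratio scaling that in MPPs from -0.11 to -0.0044. With the CD115- CDP WT library 3 left out, Mnt was also called in WT CD115- CDPs over WT MPPs, which made 3 members.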
